A study of Mus musculus with 13 samples.

Results

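A set of 10 genes of the YAP-TEAD pathway was followed here in glomeruli of mice with THSD7A-associated membranous nephropathy (MN), chosen by symbol from the 35967 genes of the expression table. They were the coactivator genes *Yap1* and *Wwtr1*, the transcription factor genes *Tead1* and *Tead2*, the kinase genes *Lats1* and *Lats2*, and the target genes *Ccn1*, *Ccn2*, *Ankrd1* and *Amotl2*. All 10 passed the filter on low values and were among the 14322 genes tested. The 13 libraries came from wildtype Balb/c mice, 1 library per mouse, after an intraperitoneal injection of 2 mg rabbit IgG. Of these mice, 5 received control rabbit preimmune IgG, 4 received rabbit anti-THSD7A IgG and were examined at day 1, and 4 received it and were examined at day 5. The control mice formed 1 group, and the day on which each of them was examined was not given, so both MN groups were compared with the same control libraries. In this passive transfer model the antibody comes from outside the mouse and binds THSD7A on podocytes, the epithelial cells that cover the glomerular capillaries. The study used only male mice for the MN model.

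YAP and TAZ, the proteins of *Yap1* and *Wwtr1*, carry signals from cell shape, adhesion and tension into the nucleus. The kinases LATS1 and LATS2, at the end of the Hippo kinase cascade, phosphorylate them, which keeps them in the cytoplasm and marks them for degradation, while unphosphorylated YAP and TAZ bind TEAD factors and switch on genes such as *Ccn1*, *Ccn2*, *Ankrd1* and *Amotl2*. Podocytes depend on YAP for survival and for an intact filtration barrier. Much of this control acts on the proteins, and the values here are transcript levels.

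All 10 genes are protein-coding genes on the GRCm39 assembly. *Yap1* lies on chromosome 9 from 7932000 to 8004661, *Wwtr1* on chromosome 3 from 57363067 to 57483331, and *Lats2* on chromosome 14 from 57926960 to 57995845, each on the minus strand. *Ankrd1* lies on chromosome 19 from 36089352 to 36097506 and *Ccn1* on chromosome 3 from 145352720 to 145355738, also on the minus strand. The other members are on the plus strand, with *Tead1* on chromosome 7 from 112278522 to 112506014, *Tead2* on chromosome 7 from 44865172 to 44883071, *Lats1* on chromosome 10 from 7556736 to 7592226, *Ccn2* on chromosome 10 from 24471333 to 24474900, and *Amotl2* on chromosome 9 from 102593836 to 102610617.

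TEAD factors recognize the motif GGAATG, which reads CATTCC on the other strand. RefSeq promoter windows of GRCm38.p6, from 250 bases before to 50 bases after each annotated start, were found for 8 of the 10 members, with none for *Tead1* and *Ccn2*. The motif was present on either strand in windows of 6 of these 8 genes, while 14.7% of all 32851 windows and 16.6% of all 27025 gene symbols held it. The 250 bases upstream of the start are shown for the target genes *Ankrd1*, *Ccn1* and *Amotl2* and for the coactivator gene *Yap1*, with the motif in capitals, written 5′ to 3′ on the gene's own strand. They are chr19:36119845-36120094 (minus) for *Ankrd1*, chr3:145649986-145650235 (minus) for *Ccn1*, chr9:102717554-102717803 (plus) for *Amotl2* and chr9:8004597-8004846 (minus) for *Yap1*.
Ankrd1: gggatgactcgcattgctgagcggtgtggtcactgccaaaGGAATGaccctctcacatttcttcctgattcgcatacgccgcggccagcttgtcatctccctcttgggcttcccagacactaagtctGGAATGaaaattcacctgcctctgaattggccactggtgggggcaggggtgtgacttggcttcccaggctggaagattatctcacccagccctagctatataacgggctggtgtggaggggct
Ccn1: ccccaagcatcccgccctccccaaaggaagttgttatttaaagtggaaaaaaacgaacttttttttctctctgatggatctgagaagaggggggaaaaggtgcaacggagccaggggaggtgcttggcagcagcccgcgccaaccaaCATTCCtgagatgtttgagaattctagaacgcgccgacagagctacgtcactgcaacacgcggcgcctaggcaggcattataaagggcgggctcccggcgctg
Amotl2: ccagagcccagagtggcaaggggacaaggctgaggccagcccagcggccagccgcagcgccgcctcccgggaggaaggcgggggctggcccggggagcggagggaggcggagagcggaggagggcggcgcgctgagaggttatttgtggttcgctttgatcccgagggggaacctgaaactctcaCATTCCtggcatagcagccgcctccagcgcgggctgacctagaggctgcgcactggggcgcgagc
Yap1: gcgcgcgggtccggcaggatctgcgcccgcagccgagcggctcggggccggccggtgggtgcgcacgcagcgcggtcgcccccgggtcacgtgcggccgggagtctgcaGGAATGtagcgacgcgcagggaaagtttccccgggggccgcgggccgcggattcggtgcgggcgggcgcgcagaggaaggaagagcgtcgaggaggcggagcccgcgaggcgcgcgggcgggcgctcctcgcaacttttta
*Ankrd1* held the motif at 2 places, 210 and 123 bases before its start, and 1.33% of all windows held 2 or more. *Ccn1* held it 103 bases, *Amotl2* 65 bases and *Yap1* 141 bases before the start. *Wwtr1* held it in both of its overlapping windows, and *Lats2* held it 5 bases after the start of 1 of its windows. The windows of *Lats1* and *Tead2* did not hold these letters. A match describes the letters only, since no binding was measured.

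The expression values were TPM, transcript abundances scaled to a common total in each library, a unit that corrects for transcript length, so levels can be compared between genes. In control mice *Ccn2* was the highest member with a mean of 2028 TPM, rank 38 of the 14322 tested genes, and *Ankrd1* the lowest with 3.60 TPM, rank 11765. *Lats2* (169 ± 9.24, SD, n = 5) and *Amotl2* (164 ± 18.7) followed *Ccn2* and overlapped each other. *Yap1* came next (134 ± 6.29) and was separate from its neighbours on either side. *Wwtr1* (77.8 ± 4.47) overlapped *Tead2* (70.4 ± 7.44), and *Tead2* overlapped *Ccn1* (53.6 ± 9.87). *Tead1* (29.8 ± 3.57) and *Lats1* (23.8 ± 1.24) also overlapped.

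**Figure D1:**
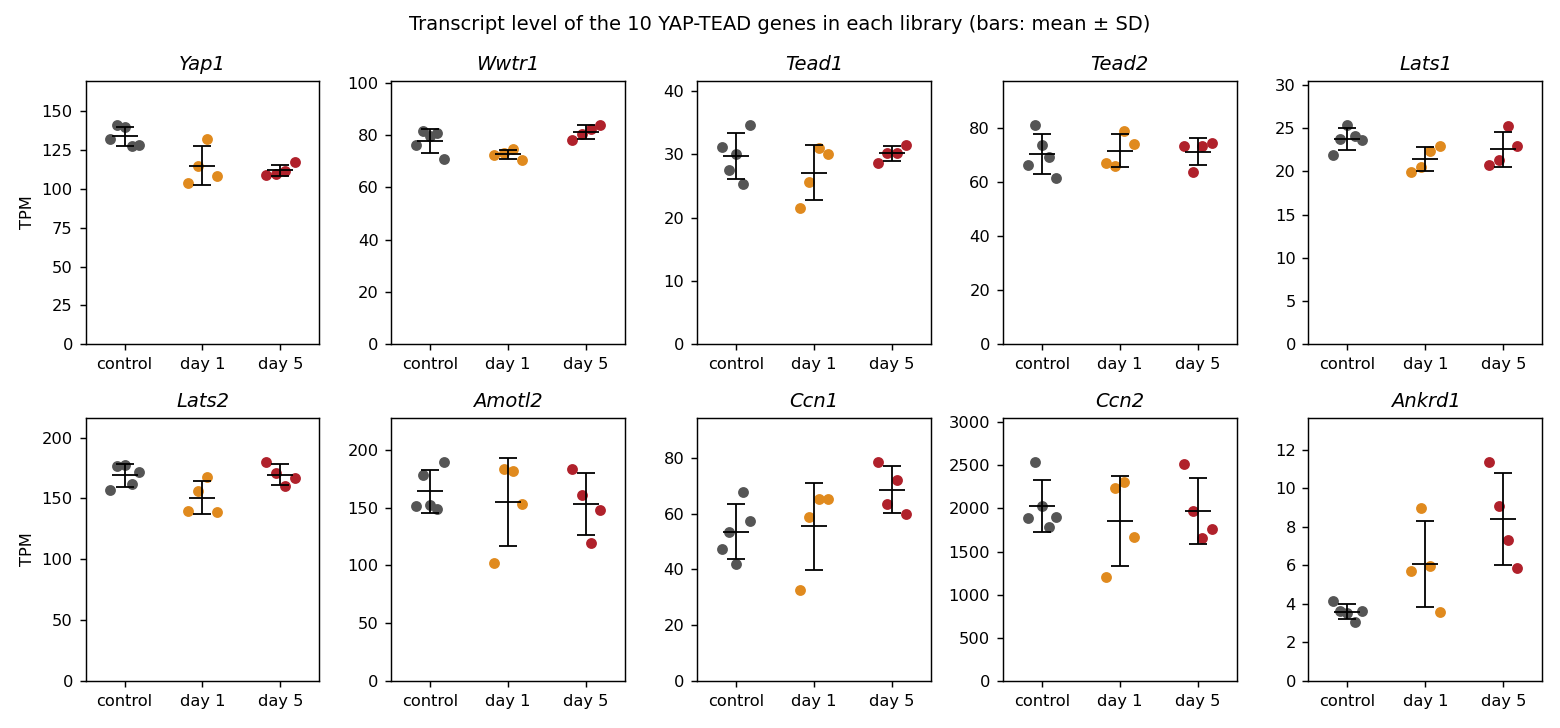
Transcript level in TPM (vertical axes, each from 0) of the 10 genes in each of the 13 libraries by group (horizontal axes), with points for libraries and bars for the mean ± SD. *Ankrd1* in the 4 day 5 libraries (5.86 to 11.4) lay above the 5 control libraries (3.06 to 4.14), and *Yap1* in the day 5 libraries (109 to 117) lay below the control libraries (128 to 141).

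These libraries came from bulk preparations of isolated glomeruli, in which fewer cells of a type and less RNA per cell cannot be told apart. Summed over 8 podocyte markers, the libraries held 7578 to 10222 TPM in control mice, 8385 to 10261 in day 1 MN mice and 9139 to 9819 in day 5 MN mice. Summed over 8 glomerular endothelial markers they held 9295 to 11415, 7713 to 11933 and 9292 to 12093 TPM. The 8 proximal tubule markers summed to 2268 to 8226 TPM in control mice (median 3694), 3955 to 7201 in day 1 MN mice (median 6635) and 2926 to 3547 in day 5 MN mice (median 3212). *Kap* alone averaged 3672, 5341 and 2715 TPM in these groups, so it made up most of that sum. The 8 mesangial and smooth muscle markers summed to 1310 to 2068, 1705 to 1986 and 1939 to 2566 TPM, 6 parietal epithelial markers to 24.2 to 37.6, 33.03 to 45.7 and 36.2 to 40.9 TPM, 5 distal tubule and collecting duct markers to 255 to 515, 493 to 896 and 345 to 477 TPM, and 8 leukocyte markers to 7.62 to 14.6, 8.499 to 18.2 and 12.4 to 18.3 TPM. *Thsd7a*, whose protein is the target of the antibody, stood at 174 ± 34.6 TPM in control mice (SD, n = 5), 124 ± 21.1 at day 1 (n = 4) and 97.2 ± 15.5 at day 5 (n = 4).

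The pathway's transcripts were compared between MN and control mice with limma on log2(scaled TPM + 0.5), and a gene was called at a Benjamini-Hochberg adjusted p under 0.05 where its log2 fold change was also beyond 0.5 in either direction. None of the 10 genes was called at day 1, when 0.0908% of all tested genes (13) were called. An unadjusted p under 0.05 was reached by 2 members there, against 12.6% of all tested genes. Of the 10, *Ankrd1* alone was called at day 5, when 3.21% of all tested genes (460) were called, and the unadjusted p was under 0.05 for 3 members and 20.1% of all tested genes. None was called between day 5 and day 1 MN mice, where 1.81% of all tested genes (259) were called, and the unadjusted p was under 0.05 for 1 member and 15.5% of all tested genes. The median log2 fold change of the 10 genes was -0.08 at day 1 and 0.05 at day 5, against 0.00 over all tested genes at both days. For 8 of the 10 genes the whole 95% confidence interval of the log2 fold change stayed within 0.5 of 0 at day 1, and likewise for 8 at day 5. At day 5 the exceptions were *Ankrd1* and *Ccn1*. At day 1 they were *Ankrd1* and *Ccn2*.

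**Figure D2:**
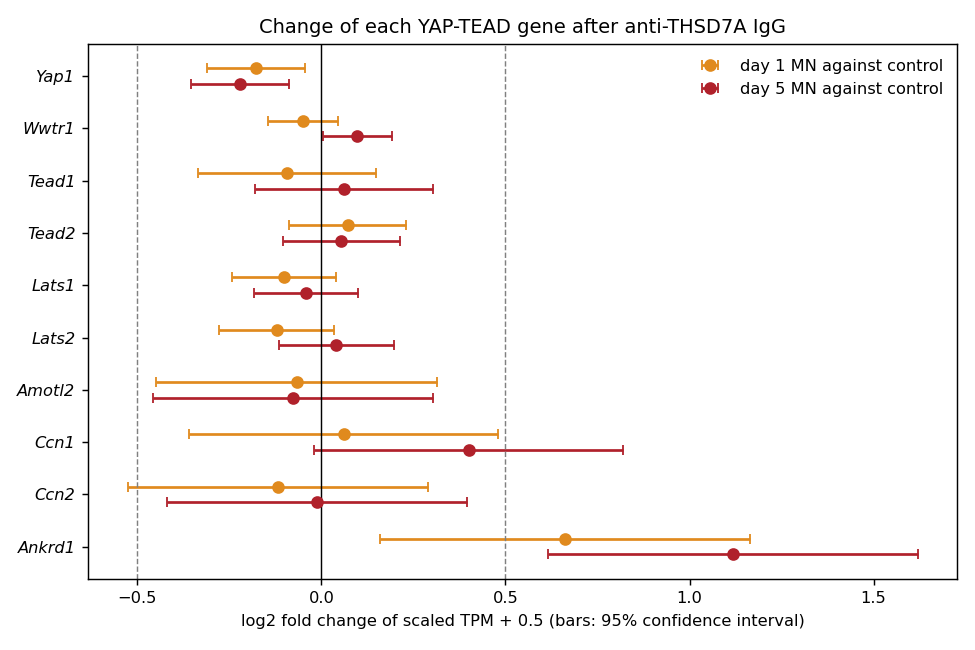
Log2 fold change of scaled TPM + 0.5 in day 1 MN and day 5 MN against control mice (horizontal axis) for the 10 genes (vertical axis), with points for the limma estimates, bars for the 95% confidence intervals and dashed lines at the fold threshold of 0.5 in either direction. The day 5 interval of *Ankrd1* (0.62 to 1.62) is the one that lies wholly past a dashed line.

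*Ankrd1* encodes a muscle and stress-responsive ankyrin repeat protein and is a widely used readout of YAP and TAZ activity. It measured 4.14, 3.63, 3.54, 3.06 and 3.66 TPM in the 5 control libraries, 5.70, 9.01, 5.98 and 3.60 at day 1, and 11.4, 9.11, 7.33 and 5.86 at day 5. Of the day 1 libraries, 3 were above the highest control library and the fourth was within the control range, while the 4 day 5 libraries were all above the controls. The increase at day 5 was 2.17-fold (95% confidence interval 1.53 to 3.07), a log2 fold change of 1.12 ± 0.23 (SE) with a limma adjusted p of 0.0113. At day 1 the log2 fold change was 0.66 ± 0.23 with an adjusted p of 0.300, and the difference between day 5 and day 1 was 0.46 ± 0.25 with an adjusted p of 0.401. That difference was 0.25 without day 1 replicate 4, 0.29 without day 5 replicate 1 and 0.11 with the endothelial markers as a covariate. *Ankrd1* kept its call at day 5 under all 26 alternatives, with log2 fold changes from 0.79 to 1.28. The lowest value came with the glomerular endothelial markers as a covariate, where the adjusted p was 0.0313, and with the proximal tubule markers as a covariate the log2 fold change was 1.12. The genes whose values over the 13 libraries were most like those of *Ankrd1* were *Hyal2* (Pearson r = 0.93), *Klf4* (r = 0.92) and *Ramp3* (r = 0.91), given as a description of likeness on log2(scaled TPM + 0.5).

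*Yap1*, which encodes the coactivator YAP, measured 132, 141, 139.7, 128 and 128 TPM in the control libraries, 103.8, 115, 132 and 109 at day 1, and 109, 109.7, 112 and 117 at day 5. All 4 day 5 libraries were below all 5 control libraries, and 1 of the 4 day 1 libraries was within the control range. The log2 fold change at day 5 was -0.22 ± 0.06 (95% confidence interval -0.35 to -0.09), which is -14.2% (-21.7 to -5.92%). Its limma adjusted p of 0.0517 missed the threshold, and the change was also below the fold threshold. At day 1 the log2 fold change was -0.18 ± 0.06 with an adjusted p of 0.294, and between day 5 and day 1 it was -0.04 ± 0.06. Under the 26 alternatives the day 5 value ranged from -0.27 to -0.20 with adjusted p-values from 0.0189 to 0.129, 8 of them under 0.05. The log2 fold change was -0.22 with the proximal tubule markers as a covariate and -0.27 with the endothelial markers. *Supt6*, *Phactr2* and *Ubxn2b* were most like *Yap1* over the 13 libraries (r = 0.95, 0.94 and 0.94).

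*Wwtr1*, which encodes the related coactivator TAZ, measured 76.2, 81.7, 79.5, 80.9 and 70.8 TPM in the control libraries, 72.2, 73.1, 74.9 and 70.7 at day 1, and 78.1, 80.6, 82.2 and 83.9 at day 5. Its day 5 libraries were all above its day 1 libraries, and the control libraries overlapped both. The log2 fold change from day 1 to day 5 was 0.15 ± 0.05 (95% confidence interval 0.05 to 0.25) with an adjusted p of 0.132. Against control mice it was -0.05 at day 1 (adjusted p = 0.668) and 0.10 ± 0.04 at day 5 (adjusted p = 0.233). The summed proximal tubule markers were higher in each day 1 library than in each day 5 library. With the mean log2 level of these markers as a covariate, the log2 fold change between the days was 0.11 (adjusted p = 0.565). Libraries did not overlap for 2 of the 10 genes between day 5 MN and control mice (*Ankrd1* and *Yap1*), where 10.8% of all tested genes did not overlap. The same was true of 1 of 10 between day 5 and day 1 MN mice (*Wwtr1*, background 11.0%) and of 0 of 10 between day 1 MN and control mice (background 4.22%). *Adamts5*, *Cnot6* and *Kif22* were most like *Wwtr1* (r = 0.90, 0.90 and 0.89).

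Since YAP and TAZ share the TEAD factors, their transcripts were also compared with each other, a ratio chosen after the values had been seen and therefore given without a test. The ratio of *Wwtr1* to *Yap1* TPM was 0.552 to 0.632 in the control libraries, 0.565 to 0.696 at day 1 and 0.715 to 0.737 at day 5. The day 5 libraries had the highest ratios and the narrowest range, and *Yap1* exceeded *Wwtr1* in every library.

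**Figure D3:**
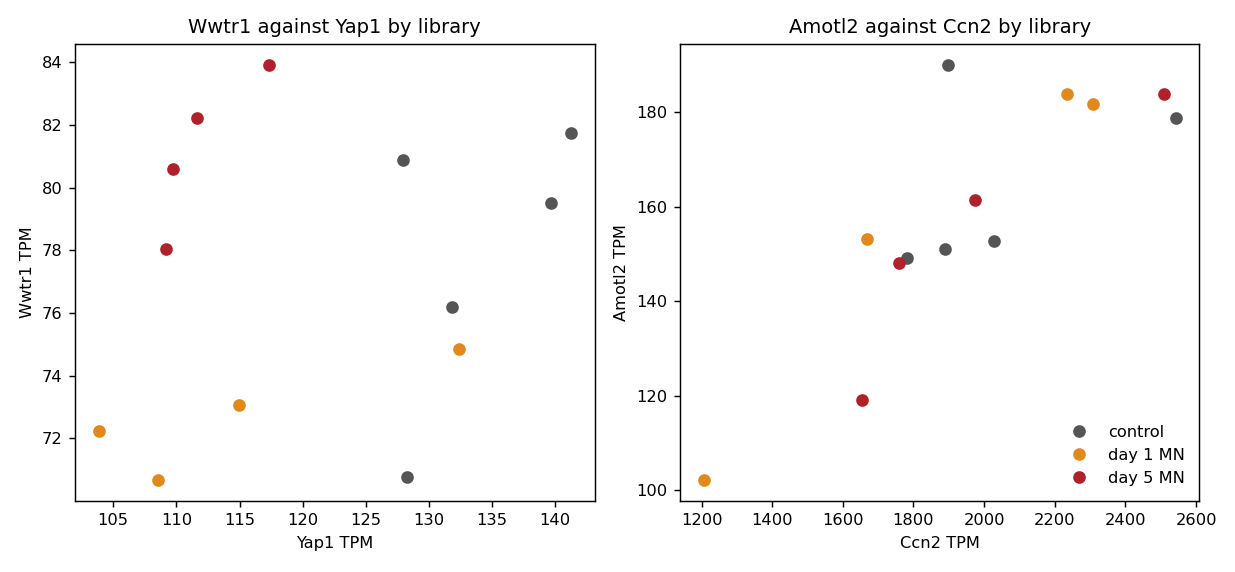
TPM of *Wwtr1* against *Yap1* (left) and of *Amotl2* against *Ccn2* (right), 1 point per library, coloured by group. On the left the 4 day 5 libraries (ratio of *Wwtr1* to *Yap1* 0.715 to 0.737) stand apart from the 5 control libraries (0.552 to 0.632), and on the right the 3 groups share 1 rising band (r = 0.879 over 13 libraries). Neither axis starts at 0.

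The TEAD genes encode the DNA-binding partners of YAP and TAZ. *Tead1* measured 31.2, 27.5, 30.1, 25.3 and 34.7 TPM in the control libraries, 21.6, 25.7, 31.0 and 30.1 at day 1, and 28.6, 30.3, 30.2 and 31.5 at day 5. *Tead2* measured 66.4, 81.1, 73.7, 69.2 and 61.6 TPM in the control libraries, 67.1, 66.1, 79.0 and 74.1 at day 1, and 73.2, 63.7, 73.4 and 74.3 at day 5. Every group overlapped every other for both genes. The log2 fold changes at day 5 were 0.06 for *Tead1* (95% confidence interval -0.18 to 0.30, adjusted p = 0.828) and 0.05 for *Tead2* (-0.10 to 0.21, adjusted p = 0.762), and at day 1 they were -0.09 (adjusted p = 0.770) and 0.07 (adjusted p = 0.726). *Tead2* was the more abundant of the pair in every library. The 2 remaining family members were also tested, with *Tead3* at 22.3 ± 1.80 TPM in control mice and 22.6 ± 1.92 at day 5, and *Tead4* at 20.7 ± 1.101 and 17.0 ± 1.57 (SD, n = 5 and 4). The log2 fold change of *Tead4* at day 5 was -0.25 ± 0.07 with an adjusted p of 0.0590, and between day 5 and day 1 it was -0.35 ± 0.07 with an adjusted p of 0.0265, below the fold threshold. Most like *Tead1* were *2210418O10Rik*, *Dpy30* and *Ormdl2* (r = 0.87, 0.87 and 0.86), and most like *Tead2* were *Ankmy2*, *D630033A02Rik* and *Gm11719* (r = 0.84, 0.81 and 0.79).

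*Lats1* and *Lats2* encode the kinases that restrain YAP and TAZ, and *Lats2* is itself a known target of YAP. *Lats1* measured 21.9, 23.7, 25.4, 24.1 and 23.6 TPM in the control libraries, 19.98, 20.5, 22.3 and 22.9 at day 1, and 20.7, 21.3, 25.2 and 23.0 at day 5. *Lats2* measured 157, 177, 177, 162 and 172 TPM in the control libraries, 140.02, 156, 167 and 139 at day 1, and 180.3, 171, 159.9 and 167 at day 5. The groups overlapped for both kinases. At day 1 the log2 fold changes were -0.10 for *Lats1* (adjusted p = 0.545) and -0.12 for *Lats2* (adjusted p = 0.515), and at day 5 they were -0.04 (adjusted p = 0.798) and 0.04 (adjusted p = 0.819). *Lats2* was the more abundant kinase transcript in every library. *Vps13b*, *Adam32* and *Gm47103* were most like *Lats1* (r = 0.91, 0.88 and 0.87), and *Elovl5*, *Kank4* and *Eif4ebp2* most like *Lats2* (r = 0.95, 0.95 and 0.90).

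*Ccn1* and *Ccn2* encode secreted matricellular proteins formerly called CYR61 and CTGF. *Ccn1* measured 47.2, 53.6, 42.1, 67.8 and 57.4 TPM in the control libraries, 32.5, 59.0, 65.3 and 65.1 at day 1, and 78.7, 63.6, 72.3 and 60.1 at day 5. Of the day 5 libraries, 2 were above the highest control library. The log2 fold change was 0.40 ± 0.19 at day 5 (95% confidence interval -0.02 to 0.82, adjusted p = 0.274) and 0.06 ± 0.19 at day 1 (adjusted p = 0.938). Of the CCN family 3 of 6 genes were tested, and the third, *Ccn4*, had a log2 fold change of 0.18 at day 1 and 0.33 at day 5 (adjusted p = 0.784 and 0.477). *Mex3c*, *Cars* and *Inpp5e* were most like *Ccn1* (r = 0.94, 0.91 and 0.88).

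*Ccn2* measured 1890.4, 2543, 2027, 1782 and 1899 TPM in the control libraries, 1206, 2235, 2308 and 1669 at day 1, and 2509.9, 1975, 1654 and 1758 at day 5. The groups overlapped fully, and the spread within each of them was larger than the differences between their means. Its log2 fold change was -0.12 ± 0.19 at day 1 (95% confidence interval -0.53 to 0.29, adjusted p = 0.844) and -0.01 at day 5 (-0.42 to 0.40, adjusted p = 0.987). *Plod3*, *Klf6* and *Lyve1* were most like *Ccn2* (r = 0.93, 0.92 and 0.91).

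*Amotl2* encodes a junctional scaffold that binds YAP and is also induced by it. It measured 151, 179, 153, 149 and 189.99 TPM in the control libraries, 102, 184, 182 and 153 at day 1, and 184, 161, 119 and 148 at day 5. The groups overlapped, with log2 fold changes of -0.07 at day 1 (adjusted p = 0.918) and -0.08 at day 5 (95% confidence interval -0.46 to 0.30, adjusted p = 0.867). Day 1 replicate 1 was the lowest of the 13 libraries for 6 of the 10 genes, *Amotl2*, *Ccn1*, *Ccn2*, *Lats1*, *Tead1* and *Yap1*. How often this library was lowest over all tested genes was not determined. *Gadd45g*, *Ccn2* and *Dnajb13* were most like *Amotl2* (r = 0.94, 0.88 and 0.87).

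The target genes were next compared with each other and with cell type markers across the 13 libraries. Among the 45 pairs of members on log2(scaled TPM + 0.5), 1 correlation passed adjustment for Pearson's r. This was that of *Ccn2* with *Amotl2* (r = 0.879, permutation p = 5e-05, adjusted p = 0.00225). Spearman's rho was 0.808 (permutation p = 0.00153) and its adjusted p of 0.0688 missed the threshold. The r was 0.758 without the 2 libraries farthest from the median of *Ccn2*, and 0.890 for deviations from the group means, so the relation was present within groups. Among 40 relations of members with summed markers of podocytes, mesangial and smooth muscle cells, glomerular endothelium or proximal tubule, 1 passed, that of *Ccn2* with the endothelial markers (r = 0.838, permutation p = 0.00037, adjusted p = 0.0148). Its rho was 0.901 (permutation p = 1e-04, adjusted p = 0.004), its r was 0.769 without the 2 farthest libraries, and its r for deviations from group means was 0.833. *Plat*, which encodes tissue plasminogen activator, made up 38.1 to 53.9% of that sum. With the other 7 markers alone the r was 0.489, and 0.542 for deviations from group means, so the relation was weaker without *Plat*. As single markers *Plat* had an r of 0.848 with *Ccn2*, *Ehd3* of 0.791 and *Tek* of 0.612, and the others of -0.08 to 0.38. Relations of this kind share the library, and the part that cell composition has in them was not tested. *Ankrd1* had an r of 0.411 and *Yap1* of 0.412 with the endothelial markers, both with an adjusted permutation p of 0.550. For deviations from group means these were 0.750 and 0.611, and without the 2 farthest libraries they were -0.106 and 0.749.

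**Figure D4:**
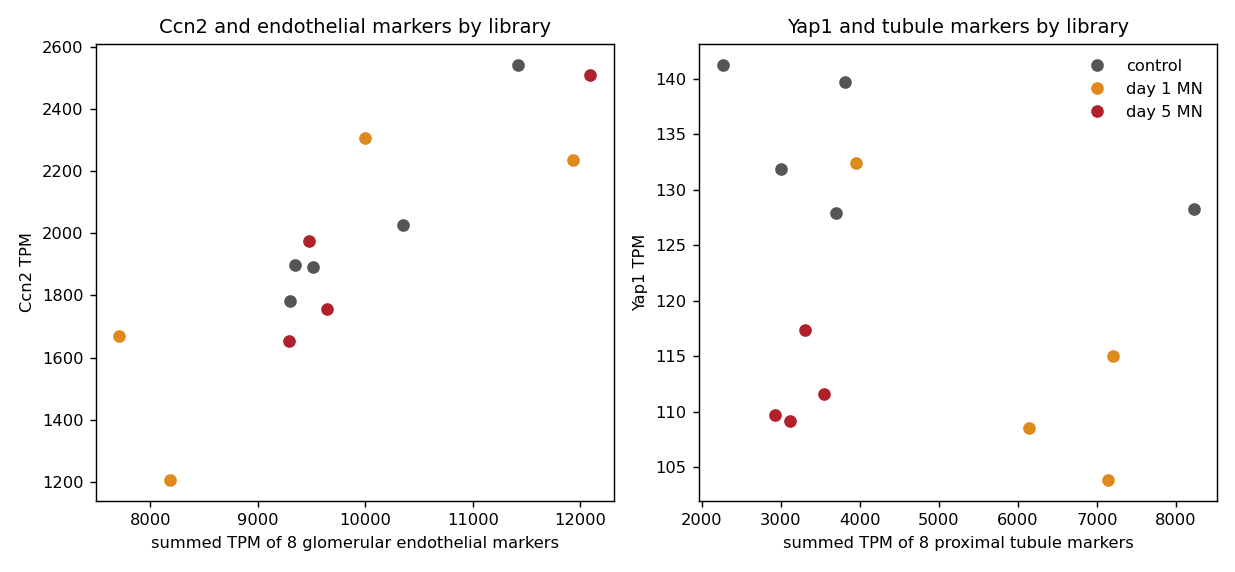
Left, *Ccn2* TPM against the summed TPM of 8 glomerular endothelial markers, and right, *Yap1* TPM against the summed TPM of 8 proximal tubule markers, 1 point per library, coloured by group. *Ccn2* rises with the marker sum over all 3 groups together (r = 0.838, and 0.489 without *Plat*), while the 4 day 5 libraries lie below the controls for *Yap1* at tubule marker sums of 2926 to 3547 TPM. Neither axis starts at 0.

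The remaining genes of the pathway were taken from lists of Hippo components and known YAP and TAZ targets. Of the kinase module, the MST, LATS and MAP4K kinases with their cofactors, 17 of 18 genes were tested and none was called by limma at either day, with median log2 fold changes of -0.06 at day 1 and 0.04 at day 5. An unadjusted p under 0.05 was reached by 2 of them at day 1 and 1 at day 5. Over all tested genes, 12.6% reached it at day 1 and 20.1% at day 5, while 0.0908% and 3.21% were called. The largest values of the kinase module at day 1 were 0.63 for *Wwc1* (adjusted p = 0.271) and -0.23 for *Stk38l*. At day 5 they were -0.16 for *Stk4* and -0.15 for *Taok2*. Of 13 restraints on these kinases none was called either (1 and 3 at an unadjusted p under 0.05), with *Dlg5* at -0.33 at day 1 and -0.32 at day 5 (adjusted p = 0.244 and 0.0691) and *Rassf6* at 0.40 and -0.25. Of the 10 coactivator and TEAD genes 8 were tested and none was called (1 and 3 at an unadjusted p under 0.05), and *Vgll3*, which encodes a cofactor that competes for TEAD factors, had 0.11 at day 1.

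Of 18 junction and polarity genes that feed into the pathway, 1 was called lower and none higher at each day, where 0.0908% of all tested genes were called at day 1 and 3.21% at day 5. This was *Pals1*, which encodes a scaffold of the Crumbs polarity complex. It stood at 117 ± 10.4 TPM in control mice (SD, n = 5), 79.4 ± 9.40 at day 1 (n = 4) and 70.1 ± 4.78 at day 5 (n = 4). The log2 fold change was -0.52 at day 1 (adjusted p = 0.0452) and -0.70 at day 5 (adjusted p = 3.74e-04). The day 5 call was kept under all 26 alternatives. The day 1 call was lost under 18 of them, among them each of the 13 fits with 1 library left out and the fit with the tubule covariate (-0.61, adjusted p = 0.138). The largest other values of this list were 0.84 for *Cdh1* and 0.77 for *Crb3* at day 1 (adjusted p = 0.241 and 0.417), and 0.37 for *Fat4* at day 5 (adjusted p = 0.229). The summed proximal tubule markers also had a higher median at day 1 (6635 TPM) than in control mice (3694 TPM), and the distal tubule and collecting duct markers summed to 493 to 896 TPM at day 1 and 255 to 515 in control mice. Their part in the values of *Cdh1*, *Crb3* and *Wwc1* was not tested.

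Of 30 further YAP and TAZ targets 27 were tested. None was called at day 1 (5 at an unadjusted p under 0.05, against 12.6% of all tested genes), when their median log2 fold change was 0.08 and the largest values were 0.47 for *Myc* and 0.42 for *Fjx1*. At day 5 the median was 0.25, against 0.00 over all tested genes, with 18 genes above 0 and 9 below. Of the 27 genes, 2 (7.41%) rose and none fell, where 3.21% of all tested genes were called. The unadjusted p was under 0.05 for 13 of the 27, against 20.1% of all tested genes. *Birc5*, which encodes the mitotic regulator survivin, rose from 1.38 ± 0.557 TPM in control mice to 13.9 ± 3.003 at day 5, a log2 fold change of 2.99 (adjusted p = 1.75e-05). *Fjx1* rose from 1.83 ± 0.163 to 3.90 ± 0.814 TPM, a log2 fold change of 0.93 ± 0.17 (adjusted p = 0.00543). The adjusted p but not the fold threshold was passed by 4 others, named after their values were seen, *Crim1* at 0.48, *Fstl1* at 0.42, *Ccnd1* at 0.31 and *Cav1* at 0.29. Of all 14322 tested genes, 876 passed the adjusted p at day 5, and 460 of these also passed the fold threshold. Between day 5 and day 1 MN mice, *Birc5* was the 1 target called, at 2.88. *Dock5* had the lowest day 5 value of the list, -0.62.

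Genes of lists outside the Hippo pathway also rose at day 5. *Birc5* is a cell division gene, and all 18 of 18 proliferation genes in a separate list were called higher in day 5 MN mice. Their median log2 fold change was 2.47, and their summed level was 23.7 to 44.3 TPM in control mice and 174 to 315 TPM at day 5. This list, like the others, was chosen with earlier results of these data known. The share called over all tested genes at day 5 was 3.21%. SRF is an actin-regulated factor with many targets in common with YAP. The list of its targets also held *Srf* itself and its cofactor genes *Mrtfa* and *Mrtfb*. Their log2 fold changes at day 5 were -0.03, -0.04 and -0.11. With these included, the median over the 14 tested genes of the list was 0.34. In this list 4 were called higher: *Tagln* (1.30), *Tpm1* (0.67), *Myl9* (0.62) and *Tpm2* (0.57), where 3.21% of all tested genes were called. *Tpm2* lost its call under 3 of the 26 alternatives, and the other 3 kept theirs. *Tagln* and another listed gene, *Acta2*, are also mesangial and smooth muscle markers, and 7 of the 8 markers of that list were above 0 at day 5, with *Tagln* the 1 called. Of 6 parietal epithelial markers *Cldn1* (1.08) and *Cd44* (0.88) were called higher at day 5, and of 8 podocyte markers *Cdkn1c* (0.72). Each kept its call under all 26 alternatives. Between day 5 and day 1 MN mice, where 1.81% of all tested genes were called, *Tagln* (0.86) was called higher. *Calb1* (-1.39) and *Aqp2* (-1.30), of 5 distal tubule and collecting duct markers, were called lower there. *Tagln* and *Calb1* lost that call under 8 alternatives and *Aqp2* under 10. Among 18 immediate-early and stress genes 4 were called higher at day 5, *Egr3* (1.28), *Egr1* (0.65), *Klf4* (0.65) and *Junb* (0.51). Of these *Klf4* kept its call under all 26 alternatives, while *Egr1* lost it under 3, *Egr3* under 6 and *Junb* under 9. At day 1, when 0.0908% of all tested genes were called, 2 of the 18 were called, *Fosb* (1.37) and *Egr1* (0.94). *Fosb* lost that call under 14 alternatives and *Egr1* under 9, among them the tubule covariate for both (adjusted p = 0.173 and 0.172). *Klf4* at day 1 passed the adjusted p (limma, 0.0271) and fell just short of the fold threshold at 0.498. The part of these genes and of cell division in the change of *Ankrd1* was not tested.

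**Figure D5:**
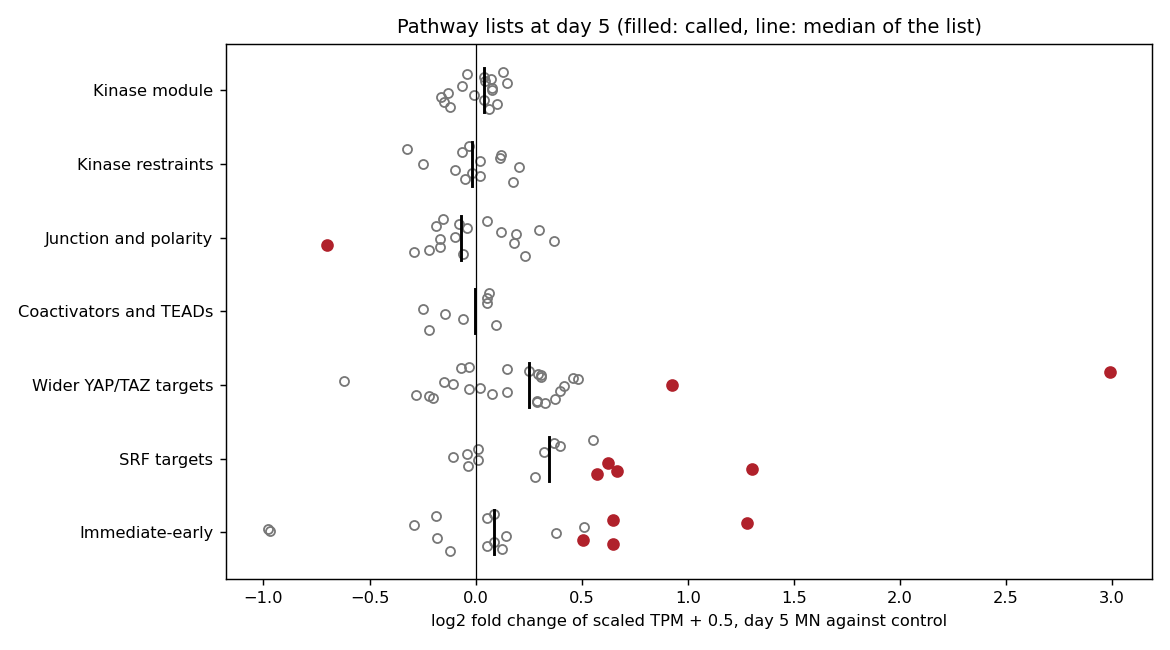
Log2 fold change of scaled TPM + 0.5 in day 5 MN against control mice (horizontal axis) for the tested genes of 7 lists (vertical axis), with a circle per gene, filled where called, and a vertical line at each list's median. The medians of the wider targets (0.25) and the SRF target list (0.34) lie to the right of the kinase module (0.04). The SRF target list includes *Srf*, *Mrtfa* and *Mrtfb*.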

How the data were processed

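Glomeruli were isolated from 13 mice with magnetic beads, and their RNA was sequenced. Per the labels and the study's methods, the reads were trimmed with Trimmomatic 0.39 and assigned to GRCm39 transcripts with kallisto 0.46.2. The authors deposited TPM values, 1 per gene symbol and library, and tested counts with DESeq2. Counts were not used here, so depth was unknown. TPM sums were 989774 to 996064 per library.

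Libraries were scaled by median-of-ratios factors of 0.955 to 1.04 over 15772 genes, and values were analysed as log2(scaled TPM + 0.5). A gene was tested if 4 or more libraries reached 1 TPM. A single limma 3.58.1 model (R 4.3.3, eBayes with trend) covered all 13 libraries, with Benjamini-Hochberg adjustment run separately on each comparison. The procedure was tested on simulated data. P-values measure the spread between mice. Correlations used 100000 permutations.

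The members and lists were chosen with earlier results of these data known. Named genes were the members, the 3 genes most correlated with each member, and genes of the lists. Of the Hippo and wider target lists these were the called genes and the 2 largest changes. Of the SRF, immediate-early and cell type lists the called genes were named. The called proliferation genes were not named singly. Alternatives covered pseudocounts, scaling, filters, the fit, a replicate block, weights, a tubule covariate and each library left out. An endothelial covariate was added after the data were seen.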

Additional observations from a re-analysis of the deposited data

Results flagged for a closer look

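*Tead2* in day 5 MN replicate 2 measured 63.7 TPM, while the other 3 day 5 libraries measured 73.2 to 74.3 TPM. The gap to the nearest library, relative to the range of the group, exceeded Dixon's 95% critical value for 4 libraries. It was 1 of 30 groups examined, and chance flags about 1 in 20. The value lay within the range of the control libraries (61.6 to 81.1 TPM).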

How the results depend on the processing

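The number of members called (0 at day 1, 1 at day 5, 0 between the days) did not change under the 26 alternatives. Among the 780 log2 fold changes of members, 28 changed sign, none of them of a called gene. For *Ccn2* at day 1 the value was 0.088 with the tubule covariate, and between the days it was -0.090 with it and -0.16 with the endothelial covariate. *Lats2* at day 5 was -0.0019 under quantile normalization and -0.040 with the endothelial covariate. *Amotl2* was 0.00047 with the replicate block at day 1 and 0.00028 between the days in unscaled TPM. With 1 library left out, values ranged at day 1 from -0.15 to 0.0079 for *Tead1*, -0.034 to 0.30 for *Ccn1*, -0.23 to 0.071 for *Ccn2* and -0.17 to 0.12 for *Amotl2*. At day 5 they ranged from -0.0077 to 0.092 for *Lats2*, -0.15 to 0.091 for *Ccn2* and -0.19 to 0.060 for *Amotl2*. Between the days they ranged from -0.089 to 0.017 for *Yap1*, -0.051 to 0.025 for *Tead2*, -0.083 to 0.22 for *Ccn2* and -0.20 to 0.13 for *Amotl2*. Over all genes, the 13 calls at day 1 became 6 without the filter, 7 without the trend, 2 with only the compared groups, 149 with the replicate block, 0 with the tubule covariate (1165 at an unadjusted p under 0.05), 20 with the endothelial covariate and 3 to 218 with 1 library left out (218 without control replicate 5). The 460 calls at day 5 became 876 with the adjusted p alone and 326 to 474 with 1 library left out. The 259 calls between the days became 153 when every library had to reach 1 TPM, 423 with only the compared groups, 162 with the tubule covariate and 150.0 to 437 with 1 library left out. The causes of these differences were not tested. Replicate numbers label different mice: deviations of the 12 same-numbered pairs correlated at -0.06 to 0.09, and the replicate block changed no call of a member. Depth was unknown, so the precision of low transcripts such as *Ankrd1* could not be given.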
